A study of Mus musculus with 12 samples.

Results

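Circular RNAs (circRNAs) in the blood of mice after 3 h of middle cerebral artery occlusion (MCAO) were compared with those in sham-operated mice. The comparison used 6 of the 12 arrays of the study, 3 of MCAO for 3 h and 3 of sham, chosen by their labels alone. All mice were male Balb/c with no genetic change, aged 8 weeks according to the labels (the methods state a slightly older age). In the MCAO group a silicon-coated nylon monofilament closed the middle cerebral artery under isoflurane anesthesia, and blood was drawn at 3 h. The sham group had the same surgery with an occlusion of 0 min and is labelled 0 h, so the occlusion and the 3 h spent after surgery cannot be told apart. The remaining 6 arrays, of MCAO for 5 min and 24 h, entered the normalization, the filter on dim signal and the estimate of the spread. The design describes the arrays of a group as independent experiments. Blood was taken from the heart into heparinized tubes, total RNA was digested with RNase R, which degrades linear RNA, and the remainder was labelled with Cy3 and hybridized to an Arraystar mouse circRNA array. The question was which blood circRNAs differ at a time when part of the ischemic tissue may still be saved.

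A circRNA forms when the spliceosome joins a downstream splice donor to an upstream acceptor (back-splicing), so that the RNA has no free end and resists exonucleases. Most circRNAs consist of exons of a host gene, and a single gene can give rise to several. They are abundant in brain, where many synaptic genes are hosts, and in platelets and red blood cells, which keep long-lived RNA without a nucleus. An array probe spans the back-splice junction, and its fluorescence is the measure of that circRNA.

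The arrays lay on 2 slides. The 3 sham arrays and replicates 1 and 2 of 3 h shared slide 1, whereas replicate 3 of 3 h lay on slide 2. Negative control spots had median intensities of 25 to 27 on the 5 arrays of slide 1 and of 83.5 on replicate 3. The scanner software called 84.6% to 85.5% of the circRNA probes well above background in sham, and 84.1%, 84.5% and 88.0% in replicates 1, 2 and 3 of 3 h. Results are therefore also given without replicate 3. Array signal has no read depth, and 3 arrays per group limit the precision.

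Of 14236 circRNA probes, 10678 passed the filter on dim signal and were tested. The values below are log2 of the normalized intensity, a log2 fold change is the mean of 3 h minus the mean of sham, and SE is its moderated standard error in limma. A circRNA was called when its Benjamini-Hochberg adjusted p was at most 0.05. At 3 h, 453 probes (4.24% of those tested) were called. Of these, 366 (3.43%) were higher and 87 (0.815%) lower, so that 80.8% of the calls were increases. When each array was weighted by its fit to the model, 6226 of the 10678 probes were called. Of these, 2731 were higher and 3495 lower, so that increases made up 43.9%. The sham arrays 1, 2 and 3 took weights of 0.26, 21.37 and 1.06, so sham rested mostly on replicate 2 in this fit. The 453 probes were all among its calls in the same direction, but with so many calls this overlap is no separate support. With a further demand of at least 2 log2 units, 196 (1.84%) remained, 189 higher (1.77%) and 7 lower (0.0656%). The median log2 fold change was 2.03 over the 366 increases, with a range of 0.95 to 4.49, and -1.43 over the 87 decreases, with a range of -3.04 to -0.91. Over all tested probes it was -0.12. In whole blood, a change in the number of cells of a type and a change in RNA per cell cannot be told apart.

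**Figure D1:**
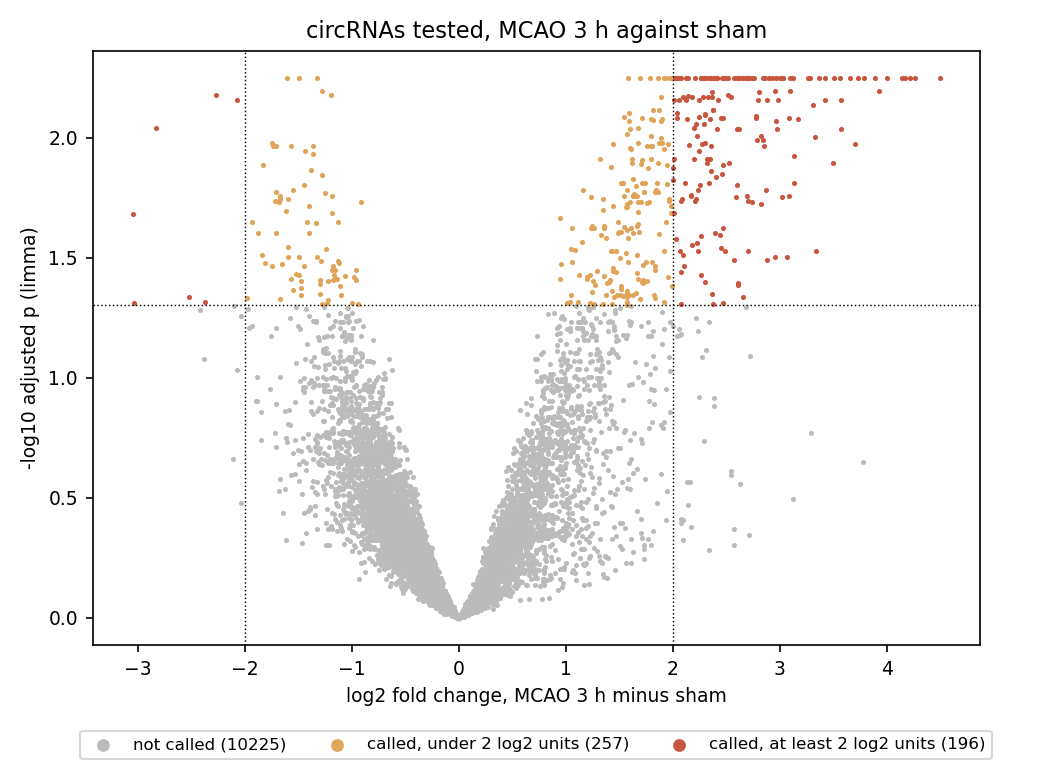
Each point is one of the 10678 circRNA probes tested, with its log2 fold change (MCAO 3 h minus sham) on the horizontal axis and -log10 of limma's adjusted p on the vertical axis. Dotted lines mark an adjusted p of 0.05 and 2 log2 units either way; 189 probes lie beyond both limits on the right and 7 on the left.

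The arrays of 3 h did not rise to the same degree. Relative to each probe's sham mean, the median of the 366 increases was 2.03 in replicate 1, 2.42 in replicate 2 and 1.65 in replicate 3, against 0.20, -0.06 and -0.14 in the 3 sham arrays. Replicate 2 was the highest of the 3 in 317 of the 366 and replicate 3 the lowest in 247. The 87 decreases lay at -1.23, -1.44 and -1.51. All 3 arrays of 3 h lay beyond all 3 sham arrays in each of the 453 called probes. Among all tested probes, 1468 (13.7%) lay wholly above sham and 1840 (17.2%) wholly below, so such separation was common without a call. Without replicate 3 of 3 h, 605 probes were called, 542 of them higher, and 386 of the 453 were among them. On slide 1 alone the count was 951, with 762 higher. Without replicate 2 it dropped to 99, with 91 higher, and without sham replicate 2 to 123, with 115 higher. It was 213 without replicate 1 of 3 h, 204 without sham replicate 3 and 741 without replicate 1 of 24 h, which enters only through the estimate of the spread. Of the 61 called circRNAs that the rule for names selected, 35 lost their call without replicate 2 of 3 h, 29 without sham replicate 2, 15 without sham replicate 3, 14 without replicate 1 of 3 h and 7 without replicate 3. The count of changes of at least 2 log2 units was 78 without replicate 2 of 3 h and 107 without sham replicate 2.

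**Figure D2:**
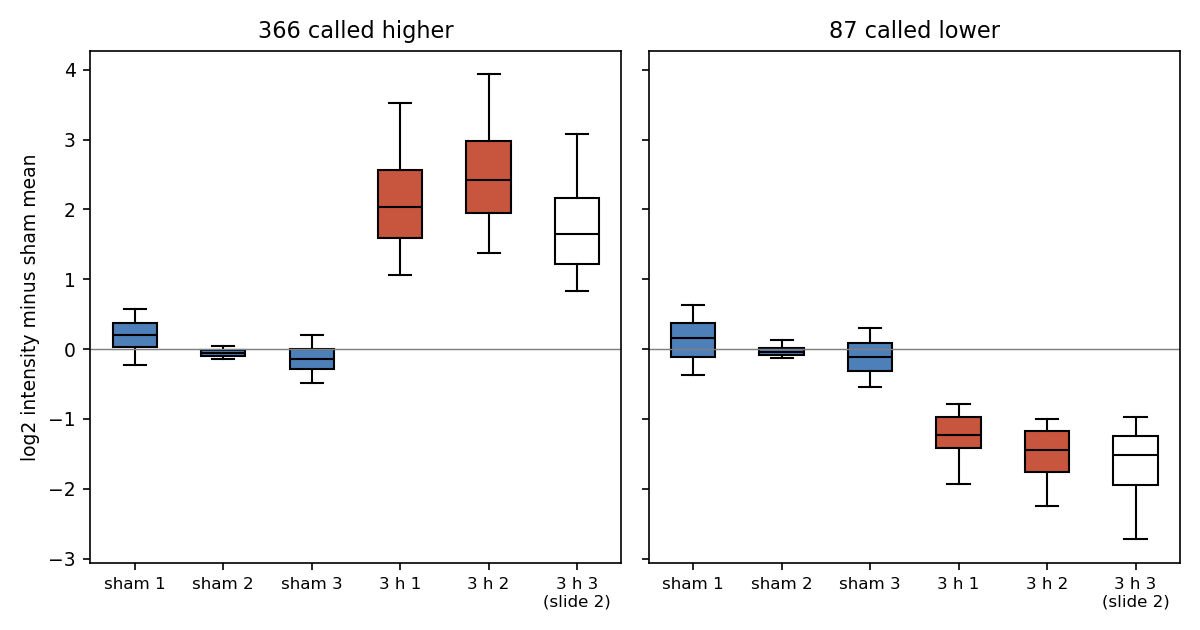
Log2 intensity minus the sham mean of the same probe, by array, for the 366 probes called higher and the 87 called lower. Boxes span the quartiles with a line at the median, whiskers reach the 5th and 95th percentiles, and the open box is replicate 3 of 3 h on slide 2; its median of 1.65 is the lowest of the 3 among the increases.

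Increases were more frequent among brightly measured circRNAs. From the dimmest to the brightest quintile of sham intensity, 1.97%, 2.11%, 2.34%, 4.82% and 5.90% of probes were called higher, and 0.19%, 0.75%, 0.61%, 0.89% and 1.64% were called lower. All 189 large increases were well above background on all 3 sham arrays, as were 10504 of all 10678 tested probes. Of the 87 decreases, 81 were well above background on all 3 arrays of 3 h, against 10422 of the 10678 tested. The filter required signal on all 12 arrays, so these counts were largely set in advance. A circRNA absent from either group could not be called.

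The array files hold probe numbers only. Names, host genes and mm10 coordinates were available for 901 tested circRNAs, each in the study's list because it was called at some time point on these arrays. Of the 901, 325 (36.1%) were called at 3 h, 284 higher (31.5%) and 41 lower (4.55%), with a median log2 fold change of 0.81 over the 901. These shares are high because of how the list was made. The other 128 called probes, 82 of them higher, carry no name here.

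The largest increase was that of circRNA_40203, which overlaps Tmem178b (chr6:40004144-40207533, + strand). Its intensity was 7.20, 7.01 and 6.95 in sham and 11.09, 11.91 and 11.64 at 3 h, a log2 fold change of 4.49 (SE 0.62, adjusted p = 0.00564, limma), or 22.5-fold. circRNA_36481 is exonic in Rad54b (chr4:11593620-11605005, + strand), a DNA translocase of homologous recombination. It measured 9.39, 9.53 and 9.51 in sham against 13.80, 14.63 and 12.79 at 3 h, a difference of 4.27 (SE 0.69). In both, the sham arrays lay within a narrow band far below the lowest array of 3 h. circRNA_45876 comes from exons of Cnksr2 (chrX:157888397-157945416, - strand), a scaffold of the postsynaptic density that binds Ras pathway proteins. It rose from 6.86, 6.43 and 6.22 to 10.42, 10.89 and 10.84, a log2 fold change of 4.21 (SE 0.66). circRNA_24344 from Psmd12 (chr11:107485549-107489072, + strand), a subunit of the regulatory particle of the proteasome, rose from 7.56, 6.82 and 6.40 to 10.74, 11.22 and 11.33, or by 4.17 (SE 0.62). In Tmem178b, Cnksr2 and Psmd12, replicate 3 on slide 2 was not the lowest of the 3 h arrays, unlike in most increases.

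circRNA_27197 from Samd8 (chr14:21774962-21780181, + strand), an enzyme of sphingolipid synthesis in the endoplasmic reticulum, measured 10.05, 10.07 and 10.08 in sham and 14.32, 14.97 and 13.34 at 3 h. The log2 fold change was 4.15 with an SD of 0.02 in sham and 0.82 at 3 h. Nearly all of its spread thus lay among the MCAO arrays. circRNA_010777 comes from Kcnma1 (chr14:23494538-23509900, - strand), the pore subunit of the calcium-activated potassium channel of large conductance. It measured 7.13, 6.63 and 6.61 in sham and 10.89, 11.56 and 9.95 at 3 h, a rise of 4.01 (SE 0.53). circRNA_27565 from Tm9sf1, a multi-spanning membrane protein, rose by 3.93, from 8.75, 8.65 and 8.62 to 12.85, 13.25 and 11.70. In these 3 circRNAs replicate 3 was the lowest of the 3 h arrays yet stood more than 2 log2 units above every sham array. circRNA_43956 lies in an intron of Kirrel3 (chr9:34536915-34538449, + strand), an immunoglobulin-type adhesion molecule of synapses. It was dim in sham, at 6.21, 6.15 and 6.08, and reached 9.73, 10.69 and 9.68 at 3 h, a log2 fold change of 3.89 (SE 0.57).

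Another 4 completed the 12 largest increases. circRNA_19178, overlapping Ermard, a membrane protein of the endoplasmic reticulum, was bright in sham at 10.93, 10.74 and 10.67 and reached 14.57, 15.14 and 13.99, a log2 fold change of 3.79. circRNA_29760 from Spice1, a protein of centrioles and the spindle, rose by 3.73, from 9.82, 9.44 and 9.37 to 13.28, 13.51 and 13.04, with the same SD of 0.24 in both groups. circRNA_34968 from Prex1, an activator of the GTPase Rac, rose by 3.66, from 9.40, 9.50 and 9.57 to 13.19, 13.72 and 12.53. The only one outside a gene was circRNA_30586 (chr17:50711410-50718783, + strand), at 8.15, 7.75 and 7.43 in sham and 11.82, 12.17 and 10.46 at 3 h (log2 fold change 3.71, SE 0.71, adjusted p = 0.0106, limma). It was also the only one of the 12 to lose its call in any of the 28 alternative settings, with adjusted p = 0.0717 without replicate 2 of 3 h and a further loss without sham replicate 2. Without replicate 3, the log2 fold changes of Tmem178b, Rad54b and Cnksr2 were 4.45, 4.74 and 4.15.

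**Figure D3:**
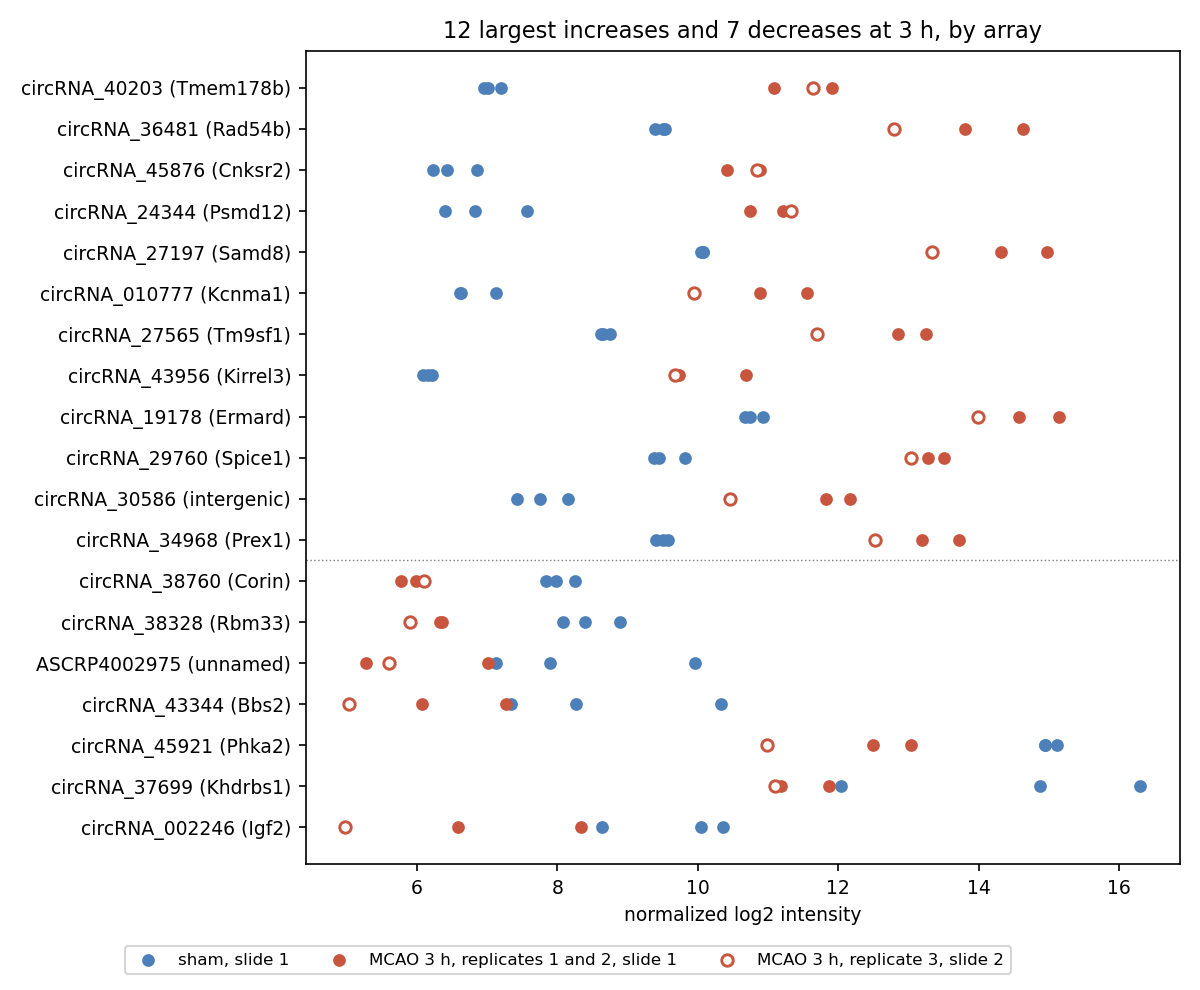
Normalized log2 intensity of the 12 largest increases and the 7 decreases of at least 2 log2 units, 1 point per array. Filled points lie on slide 1 and open points are replicate 3 of 3 h on slide 2; the sham and 3 h points of a circRNA do not overlap, but lie next to each other for Khdrbs1, Bbs2, Igf2 and ASCRP4002975.

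Only 7 probes fell by at least 2 log2 units, and they did not do so with equal certainty. circRNA_45921 from Phka2 (chrX:160523271-160533077, + strand), a regulatory subunit of the phosphorylase kinase that starts glycogen breakdown, was among the brightest in sham, at 15.11, 14.95 and 14.95. At 3 h it measured 13.04, 12.50 and 10.99, a log2 fold change of -2.83 (SE 0.52, adjusted p = 0.00911, limma). All 3 arrays were lower, with replicate 3 the lowest. circRNA_38328 from Rbm33 (chr5:28331110-28352643, + strand), an RNA-binding protein, fell from 8.89, 8.39 and 8.08 to 6.33, 6.35 and 5.90 (-2.26, SE 0.38, adjusted p = 0.00668). circRNA_38760 from Corin (chr5:72329611-72343117, - strand), the protease that activates atrial natriuretic peptide, fell from 7.83, 7.98 and 8.25 to 5.77, 5.98 and 6.10 (-2.07, SE 0.36, adjusted p = 0.00701). These 3 decreases kept their call in all 28 alternative settings. Without replicate 3 of 3 h, their log2 fold changes were -2.23, -2.12 and -2.14 in the same order.

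The other 4 rested on more scattered arrays, and each lost its call in some alternatives. circRNA_002246, which overlaps the imprinted growth factor gene Igf2 with a span of only 67 bp (chr7:142651460-142651527, - strand), measured 8.64, 10.04 and 10.36 in sham and 8.33, 6.59 and 4.98 at 3 h. The log2 fold change of -3.04 (SE 0.67, adjusted p = 0.0208, limma) was the largest decrease, although the lowest sham array exceeded the highest array of 3 h by little. circRNA_37699 from Khdrbs1 (chr4:129712103-129730325, - strand), a signalling-regulated RNA-binding protein, measured 16.30, 14.88 and 12.04 in sham and 11.87, 11.18 and 11.10 at 3 h (-3.03, SE 0.79, adjusted p = 0.0488). Its spread was mostly in sham, with an SD of 2.17 against 0.43. circRNA_43344 from Bbs2 (chr8:94086655-94092622, - strand), a subunit of the BBSome that carries cargo into cilia, measured 10.33, 8.26 and 7.34 in sham and 7.26, 6.07 and 5.03 at 3 h (-2.52, SE 0.65, adjusted p = 0.0462). The unnamed probe ASCRP4002975 showed a like order, with 9.96, 7.90 and 7.13 in sham and 7.01, 5.27 and 5.60 at 3 h (-2.37, SE 0.61, adjusted p = 0.0483). Igf2 lost its call in 4 of 28 alternatives, with adjusted p = 0.092 on the sham and 3 h arrays alone and 0.107 without sham replicate 2, and also without sham replicate 3 and without replicate 2 of 3 h. Khdrbs1 lost its call in 21 of 28 alternatives, with an adjusted p of up to 0.197, Bbs2 in 17 of the 27 that gave it a value and ASCRP4002975 in 19 of 27. Without replicate 3 of 3 h, the log2 fold changes were -2.22 for Igf2, -2.89 for Khdrbs1, -1.98 for Bbs2 and -2.19 for ASCRP4002975. Igf2 was then no longer the largest decrease, and Bbs2 fell short of 2 log2 units. The intergenic circRNA_26316 had a log2 fold change of -2.10 with adjusted p = 0.0503 and was not called. Its arrays measured 11.18, 10.45 and 10.22 in sham and 9.16, 8.45 and 7.95 at 3 h.

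The limit of 2 log2 units divides a continuum. circRNA_25821 from Wars and circRNA_38234 from 5031425E22Rik lay just inside it at 2.00, and circRNA_30420 from BC004004 and circRNA_41526 from A230006K03Rik just outside at 1.99.

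Host genes were grouped into lists by function. For each list, the count of called circRNAs is given beside the 36.1% called and the median log2 fold change of 0.81 over all 901 named circRNAs, with no test of the list. Since named circRNAs were selected by calls on these arrays and the lists were drawn up with results known, the counts are descriptions.

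Hosts of glutamate and GABA signalling and transmitter release gave 27 named circRNAs, of which 13 rose, 1 fell and 13 were not called (51.9% called, median 2.17). Beside Cnksr2, circRNA_42273 from Cacng3, an auxiliary subunit of AMPA-type glutamate receptors, rose by 3.03, from 7.32, 7.29 and 7.50 to 9.88, 10.65 and 10.67. circRNA_22421 from Anks1b, a postsynaptic scaffold, rose by 2.96 (SE 0.70, adjusted p = 0.0315, limma). It lost its call in 9 of 28 alternatives. The adjusted p was 0.0596 without replicate 3 of 3 h and at most 0.143, without replicate 2 of 3 h. Both circRNAs of Synj2, a phosphoinositide phosphatase of vesicle recycling, rose, by 2.90 and 2.60, and so did that of Dlgap4, a scaffold protein of the postsynaptic density (2.29). circRNA_013699 from Stxbp5, which restrains vesicle fusion, was the one that fell, by 1.54. Glutamate receptor genes themselves were not among the calls: the log2 fold changes were 1.23 for Grik2, 1.17 for Grm3, 1.14 for Grin2b and -0.46 for Grin2a, with adjusted p from 0.0856 to 0.704. Without replicate 3 of 3 h, 12 of the list were higher and 1 lower.

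Neuronal adhesion and axon guidance hosts gave 36 circRNAs, of which 16 rose and 1 fell (47.2% called, median 1.44). circRNA_37286 in an intron of Dab1, an adaptor of reelin signalling, rose by 3.07. Its arrays were 5.82, 5.45 and 5.44 in sham and 8.71, 9.68 and 7.51 at 3 h, and its call was lost in 8 of 28 alternatives. circRNA_38525 from Crmp1, a mediator of semaphorin signalling, rose by 2.84, from 6.13, 5.86 and 5.89 to 8.63, 9.27 and 8.51. Others that rose were Opcml (2.84), the ephrin receptor Epha5 (2.37), N-cadherin Cdh2 (2.20) and the netrin receptor Dcc (1.28). circRNA_37852 from Igsf21 fell by 1.74. A second circRNA of Epha5 measured 7.80 in sham and 7.97 at 3 h and was not called.

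Ion channels and calcium stores gave 32 circRNAs with 10 increases and no called decrease (31.2% called, median 0.90). circRNA_35962 from Kcnc4, a fast voltage-gated potassium channel, rose by 2.97, from 11.11, 10.40 and 10.10 to 13.36, 13.60 and 13.55. The related Kcnc1 rose by 2.28, and the calcium channels Cacna1h and Cacna1c by 2.33 and 2.01. Hosts acting in G protein, cyclic nucleotide and lipid signalling gave 32 circRNAs with 8 increases and no called decrease (25% called, median -0.28). They included Grk2, the kinase that silences activated receptors (3.17), the G protein subunits Gng2 (3.13) and Gnaq (1.8), and the adenylyl cyclases Adcy2 (2.93) and Adcy8 (2.47).

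Control of small GTPases was the list with the most circRNAs, 48, of which 16 rose and 2 fell (37.5% called, median 0.92). After Prex1 came circRNA_015541 from Rabgap1 (3.50) and circRNA_42572 from Rasa3, which switches off Ras and Rap (3.42, from 9.31, 8.81 and 8.67 to 12.01, 12.54 and 12.50). Rapgef1 (3.03) and Tiam1 (2.06) also rose, whereas Ralgps2 fell by 1.67. The exchange factor Vav3 had a log2 fold change of -1.59 and was called, but lost its call in 9 of 28 alternatives. Among these were the fit without replicate 3 of 3 h (adjusted p = 0.0735, limma), slide 1 alone (0.0531) and slide as a fixed term (0.0739). Each of these gave a log2 fold change of -1.29, since replicate 3 is the only array of this comparison on slide 2. They are therefore not separate losses. Rabgap1 lost its call in 3 alternatives, without sham replicate 2 and without replicates 1 and 2 of 3 h in turn.

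Glucose and glycogen metabolism, with 15 circRNAs, had 5 increases and 2 decreases (46.7% called, median -1.07). CircRNAs of 2 hexokinases, the entry to glycolysis, rose: circRNA_001832 from Hk2 (chr6:82730767-82739674, - strand) from 10.46, 10.20 and 10.06 to 13.50, 13.73 and 13.76 (3.42, SE 0.46), and Hk1 by 2.26. The 3 h arrays of Hk2 had an SD of 0.14. The coactivator of mitochondrial genes Ppargc1a rose by 2.34. Dhtkd1 (2.85), which acts in lysine breakdown, and Ugt2b34 (2.04), which transfers glucuronic acid, are members whose main role lies outside glucose use. Phka2, described above, and the glycogen synthase kinase Gsk3b (-1.70, SE 0.39) fell.

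Of 42 circRNAs from ubiquitin and proteasome hosts, 10 rose and 2 fell (28.6% called, median -0.59). After Psmd12, the ubiquitin ligases Siah1a (2.43) and Ttc3 (2.35) rose most, and the proteasomal deubiquitinase Psmd14 fell by 1.42. Of 34 from protein kinases, 6 rose and 2 fell (23.5% called, median -0.44). They included Sgk1, a kinase induced by serum and glucocorticoids, at 11.48, 11.31 and 11.24 in sham and 14.22, 14.66 and 13.30 at 3 h (2.72), and Abl1 (1.96).

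Chromatin hosts gave 46 circRNAs with 10 increases and 1 decrease (23.9% called, median 0.76). The arginine methyltransferase Prmt3 rose by 3.03, Asxl3 by 2.78 and 2.60 in 2 circRNAs, and Mllt10, a cofactor of histone methylation, by 2.62. The DNA methyltransferase Dnmt3a rose by 2.31. RNA-binding hosts gave 41 with 8 increases and 2 decreases (24.4% called, median -0.51), the decreases being Khdrbs1 and Rbm33. Cpeb3, a regulator of local translation, rose by 2.86 with arrays of 9.96, 9.86 and 9.95 against 12.79, 13.09 and 12.48, and Tdrd7, a protein of RNA granules, by 2.71. Without replicate 3 of 3 h, this list had 7 increases and 1 decrease.

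In DNA repair and chromosome segregation, 5 of 28 circRNAs rose and none was called lower (17.9% called, median -0.31), with Smc1a, a subunit of cohesin, at 2.70 and the nuclease Eepd1 at 2.47 after Rad54b. Of 31 centrosome and cilium circRNAs, 12 rose and 1 fell (41.9% called, median 0.43). The increases included Wdr11 (3.13), Tmem67 of the ciliary transition zone (2.80), which reached 14.99, 15.21 and 14.95, and 2 circRNAs of Cep85 (2.71 and 2.63). Bbs2 was the decrease.

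**Figure D4:**
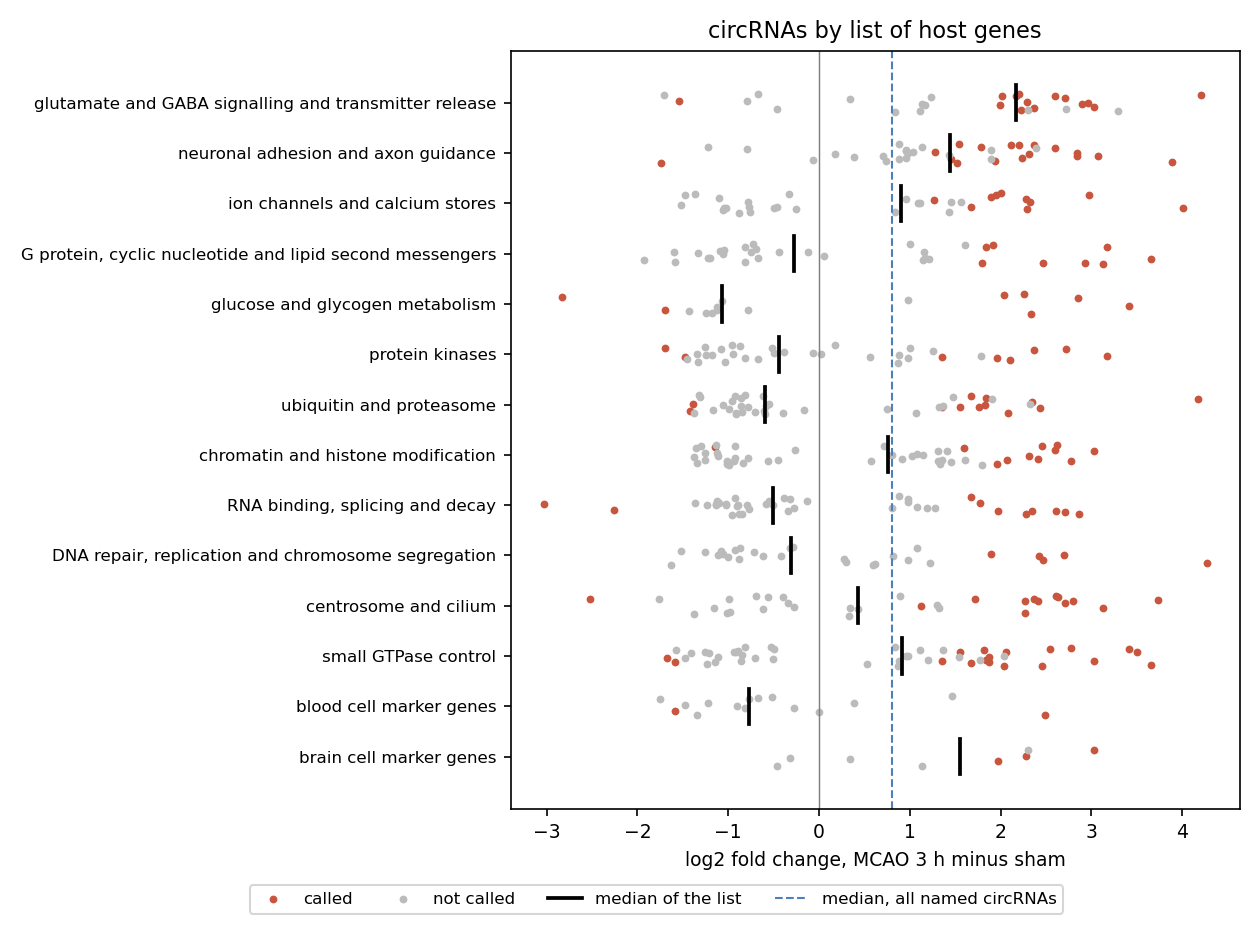
Log2 fold change (MCAO 3 h minus sham) of each named circRNA, by list of host genes. Red points were called and grey ones were not, the black bar is the median of the list and the dashed line the median of 0.81 over all named circRNAs; the list of glutamate and GABA signalling has the highest median, 2.17, and that of glucose and glycogen metabolism the lowest, -1.07.

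The array measures no mRNA, so blood cells could be checked only through circRNA hosts. Of 31 marker genes of platelets, erythroid cells, myeloid cells and lymphocytes, 10 hosted named circRNAs, 15 in all. Defining markers such as Pf4, Alas2, S100a8, Cd3e and Cd79a had none. Of the 15, Ets1 was called higher (2.49), Vav3 lower (-1.59) and 13 were not called. The share called was 13.3%, against 36.1% of all named. Their median was -0.77, and -0.56 without replicate 3 of 3 h. Ets1 lost its call in 6 of 28 alternatives, each with 1 array left out, and Vav3 in 9, as above. The summed intensity of the 15 was 18900, 13100 and 11000 in sham and 8900, 10000 and 7650 at 3 h. It was lower on each array of 3 h, but the sham arrays themselves ranged from 11000 to 18900. The median over the brain markers was 1.55, and 0.85 without replicate 3 of 3 h. Of 24 brain marker genes, 7 hosted 8 named circRNAs, of which 3 rose (37.5%, against 36.1% called of all named). These were 1 from Cacng3 and 2 from Rbfox1, a neuronal splicing factor (2.28 and 1.97). Neither host was among the brain markers set down in the design, and the list was drawn up with results known. The summed intensity of the 8 was 4420, 3370 and 3210 in sham and 10100, 12500 and 11700 at 3 h. It includes the 3 that rose, with means of 7.37, 10.10 and 9.29 in sham and 10.40, 12.38 and 11.26 at 3 h. The sum is therefore not separate from their calls. The defining brain markers Rbfox3, Gfap, Mbp and Tmem119 had no named circRNA. The part of cell composition, or of RNA from brain, in the results was not tested.

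The 306 called circRNAs with a host came from 287 genes, and 16 genes had more than 1. In 12 of the 16 all called circRNAs rose and in 3 all fell. Such circRNAs are not independent, since 13 of the 16 had overlapping spans and 11 shared an end. The decreases of Elf2, a transcription factor of the ETS family, came from 3 circRNAs with the same start and ends within 5 bp (-1.73, -1.67 and -1.71). circRNA_003023 of this group measured 13.80, 13.65 and 13.55 in sham and 12.01, 12.08 and 11.72 at 3 h. St6galnac3, a sialyltransferase, also had 3 (-1.82, -1.56 and -1.49), and both of Camta1 fell (-1.28 and -1.36). Of the 28 alternatives, circRNA_19280, circRNA_005039 and circRNA_003023 of Elf2 lost their call in 5, 5 and 2, and circRNA_010337, circRNA_19311 and circRNA_36337 of St6galnac3 in 10, 8 and 3. Corin alone moved both ways, with circRNAs that did not overlap: circRNA_38760 fell, as above, while circRNA_38761 (chr5:72353869-72360758, - strand) rose from 8.46, 8.46 and 8.41 to 11.54, 11.89 and 10.38 (2.83, SE 0.53, adjusted p = 0.00985, limma). Cnksr2 had a second circRNA at 9.66 in sham and 7.95 at 3 h, which was not called (-1.71, adjusted p = 0.170).

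A230057D06Rik was the host with 3 circRNAs that all rose (1.59, 1.36 and 2.05). Their spans on the - strand of chromosome 7 hold hairpins of the miR-344 family, a feature of 5 of the 325 called named circRNAs for any hairpin on the same strand. circRNA_41532 (chr7:61786069-61814190) spans Mir344b, and circRNA_41535 (chr7:61813261-61913335) and circRNA_41537 (chr7:61813261-61916736) both span Mir344c and Mir344. The mature sequences (RefSeq, GRCm38.p6, 5′ to 3′) are shown with the seed, bases 2 to 8, in capitals, since they show which family lies inside these spans.
mmu-miR-344b-5p: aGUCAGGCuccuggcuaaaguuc
mmu-miR-344c-5p: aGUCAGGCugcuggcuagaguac
mmu-miR-344-5p: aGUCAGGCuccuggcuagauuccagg
mmu-miR-344b-3p: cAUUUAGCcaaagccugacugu
mmu-miR-344c-3p: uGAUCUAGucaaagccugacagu
mmu-miR-344-3p: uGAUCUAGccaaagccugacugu
The 3 5p arms share the seed GUCAGGC, and the 3p arms of miR-344 and miR-344c share GAUCUAG, whereas miR-344b-3p has AUUUAGC. No miRNA was measured, and whether a circle keeps the part of the span with a hairpin is not known from a junction probe. circRNA_41537 was the brightest of the 3, at 9.55, 8.95 and 8.63 in sham and 11.05, 11.45 and 10.77 at 3 h. circRNA_41535, which shares its start, was dim at 5.62, 5.33 and 5.56 against 6.5, 6.83 and 7.26, and lost its call in 12 of 28 alternatives.

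Every type of circRNA contributed increases. Of 662 exonic circRNAs, 197 rose and 34 fell (34.9% called, median 0.68), and of 139 sense-overlapping ones 46 rose and 7 fell (38.1%, median 0.59). Named circRNAs outside exons had no called decrease: 20 of 60 intronic circRNAs rose (33.3%, median 1.03), 11 of 20 antisense (55.0%, median 1.64) and 10 of 20 intergenic (50%, median 1.26). Only 4.55% of all named circRNAs were called lower, so few decreases could lie among these types. The intergenic circRNA_26316 stood at -2.10 with adjusted p = 0.0503 (limma). Of the 87 decreases, 46 have no name and so no type here. The difference between types was not tested. The median span of exonic circRNAs that rose was 10146 bp, against 13814 bp for those not called. It was 8060 against 9223 bp in sense-overlapping and 6947 against 8097 bp in intergenic ones. The order was opposite in intronic (3866 against 2495 bp) and antisense circRNAs (2093 against 1284 bp).

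The same probes can be set beside the arrays of 5 min and 24 h. Both comparisons use the same 3 sham arrays, and the 24 h arrays all lay on slide 2. The 5 min arrays were dimmer, with median raw circRNA intensities of 50, 69 and 62 against 83, 103 and 112.75 in sham. The share of circRNA probes well above background was 70.9%, 74.7% and 77.1% at 5 min and 90.2%, 78.0% and 73.0% at 24 h. These differences limit the values at both times. The 366 increases had a median log2 fold change of 0.81 at 5 min and 2.69 at 24 h, and the 87 decreases of -0.88 and -1.94. Tmem178b stood 1.26 above sham at 5 min, 4.49 at 3 h and 6.28 at 24 h, and Kirrel3 1.11, 3.89 and 7.46 in the same order. Of the 12 largest increases, only Kirrel3 was called at 24 h against 3 h (3.57, adjusted p = 0.0105, limma). Tmem178b differed by 1.78 (adjusted p = 0.114) and Tm9sf1 by 0.38 (adjusted p = 0.804). The direct test of 3 h against 5 min called 222 of all tested probes (2.08%), among them 75 of the 366 increases as higher at 3 h and 15 of the 87 decreases as lower. The test of 24 h against 3 h called 497 (4.65%), of which 49 were increases at 3 h that were still higher at 24 h and 1 was an increase that was lower. For most of the 366, no difference between neighbouring times was called.

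Of the 7 large decreases, the direct test of 3 h against 5 min called 2, Corin and Rbm33. That of 24 h against 3 h called none, so different courses among the others were not established. Corin and Rbm33 were above sham at 5 min, by 1.21 (adjusted p = 0.0638, limma) and 0.42 (adjusted p = 0.498), and below it at 3 h. From 5 min to 3 h, circRNA_38760 of Corin fell by 3.28 (adjusted p = 0.00267) and circRNA_38328 of Rbm33 by 2.69 (adjusted p = 0.0144). Phka2 already had a log2 fold change of -3.16 at 5 min, Bbs2 of -3.27 and ASCRP4002975 of -3.26, against -2.83, -2.52 and -2.37 at 3 h. Igf2 and Khdrbs1 stood at -0.89 and -0.85 at 5 min, neither called, and at -4.67 and -4.29 at 24 h.

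**Figure D5:**
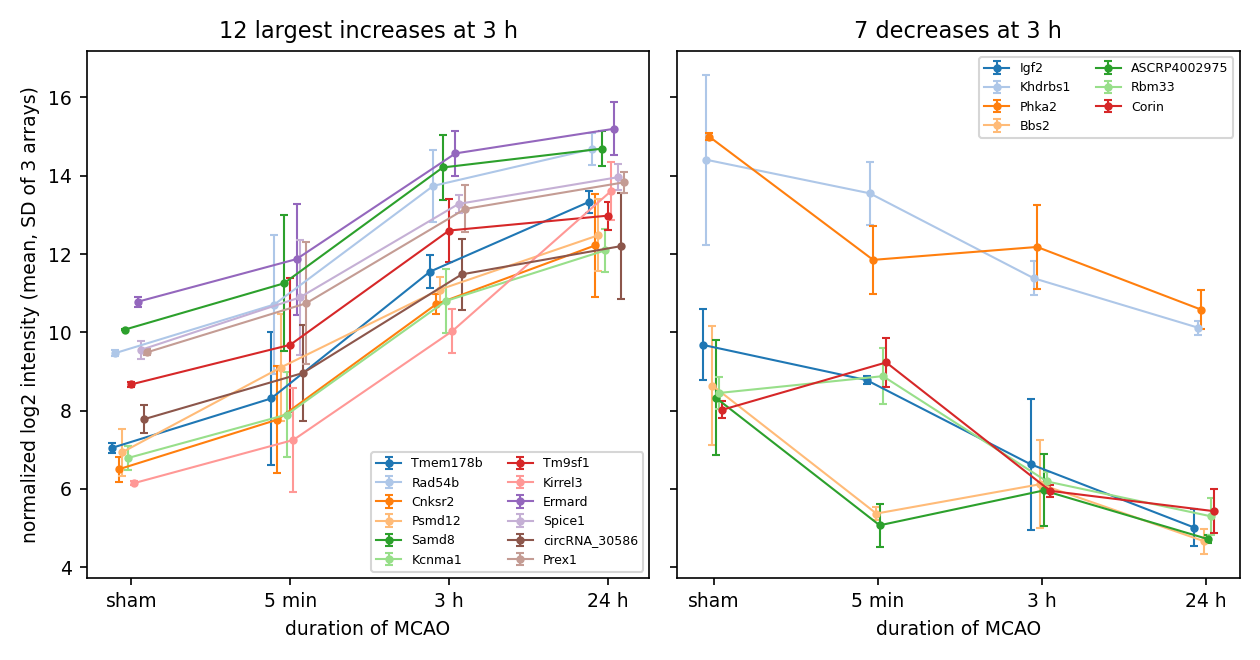
Mean normalized log2 intensity by group for the 12 largest increases (left) and the 7 decreases of at least 2 log2 units (right), with SD of 3 arrays as bars. Points are drawn side by side for legibility, lines join means of different mice, and the arrays of 24 h all lie on slide 2. Corin and Rbm33 lie above sham at 5 min, where neither was called, and below it at 3 h.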

How the data were processed

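The authors deposited the output of Agilent Feature Extraction 11.0.1.1 for each array, whose values are spot intensities on a linear scale, and a table of log2 values that they had normalized between arrays. Here, the median pixel intensity of each spot and of its surroundings went through normexp background correction with offset 0, quantile normalization and log2 in limma 3.58.1 (R 4.3.3). Outlier spots were set to missing. Tested probes had at least 1.1 times the 95th percentile of negative control spots on each of 12 arrays. The 4 groups were fitted together in limma with an intensity trend and 8 residual degrees of freedom, and two-sided tests were adjusted by Benjamini-Hochberg over all 10678 probes. Scripts were tested on simulated data.

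Names came from the study's list of 903 circRNAs. Of these, 902 matched a single probe on mean and fold change within 0.0005, so equality of these values is a condition of naming, and 901 were among the probes tested. The authors' comparisons in that list served for this match only. The host symbol stood at the listed place in GRCm38 for 816, after correction of a misread symbol for 41, and not for 11, while 35 list none. The rule for names selected 62 circRNAs (61 called): the largest changes, circRNAs that the study drew, up to 3 called members of each host list, hosts with 3 called circRNAs, large unnamed calls and neighbours of the limit. Other list members were named after their values were seen. Some called list members are not reported here. Members, rule and lists were chosen with earlier results of these data known.

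Groups and replicate numbers come from the labels. Deviations of same-numbered sham and 3 h arrays correlated at -0.0073, -0.304 and 0.200, so the numbers were not taken as pairs. With 3 arrays against 3, an exact permutation test of a single circRNA cannot go below 0.1. Alternatives covered background, normalization, filter, samples, slide (statmod 1.5.0), weights and left-out arrays.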

Additional observations from a re-analysis of the deposited data

Results flagged for a closer look

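Of the 62 circRNAs that the rule for names selected, 24 differed between 3 h and 5 min of MCAO by limma's direct test within the model. Limma's adjusted p was 0.00267 to 0.0476 (Benjamini-Hochberg, 3 arrays per group). The test calls a difference between the effects at the 2 times against the same sham arrays. Over all 10678 tested probes it called 222 (2.08%). Most of the 62 were selected by the same 3 h values, so a higher share among them is built into the selection. The log2 difference, 3 h minus 5 min, was 3.24 for Tmem178b, 3.03 for Rad54b, 2.96 for Samd8, 2.95 for Cnksr2, 2.92 for Tm9sf1, 2.90 for Kcnma1, 2.78 for Kirrel3, 2.70 for Ermard and 2.38 for Spice1. These 9 belong to the 12 largest increases at 3 h. It was 2.68 for Mllt10, 2.53 for Rasa3, 2.45 for Grk2, 2.40 for Prmt3, 2.23 for Hk2, 2.18 for Cacng3, 2.13 for Gng2, 2.11 for Tdrd7 and 2.09 for Sgk1. Smaller differences were 1.91 for 5031425E22Rik, 1.88 for Siah1a, 1.66 for Smc1a and 1.46 for circRNA_41532 of A230057D06Rik. In the opposite direction it was -3.28 for circRNA_38760 of Corin and -2.69 for Rbm33. Over all 325 named circRNAs called at 3 h, 70 were higher and 5 lower at 3 h than at 5 min, against 136 and 86 of all 10678 tested.

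Between 24 h and 3 h, 7 of the same 62 differed (adjusted p of 0.0105 to 0.0496, limma), against 497 (4.65%) of all tested probes. The log2 difference, 24 h minus 3 h, was 3.72 for circRNA_37286 of Dab1, 3.57 for Kirrel3, 2.25 for Eepd1, 2.24 for Cacng3, 1.89 for Wars, 1.24 for circRNA_30420 of BC004004 and -1.60 for circRNA_003023 of Elf2. Over all 325, 46 were higher and 6 lower at 24 h than at 3 h, against 261 and 236 of all tested probes. All arrays of 24 h, and only replicate 3 of 3 h, lay on slide 2, and the part of the slide in these differences was not tested.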

How the results depend on the processing

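The main count of 453 called circRNAs, with 80.8% higher, was 951 on slide 1 alone and 6226, with 43.9% higher, under array weights, where sham replicate 2 took a weight of 21.37 and replicate 1 of 24 h one of 0.09. The share of increases was 74.5% with no background subtraction, 74.6% with an offset of 50 and 89.6% with slide as a fixed term, which called 598. A limit of 1 log2 unit gave 444 in place of 196. Over all tested probes, the middle log2 fold change was -0.0327 under cyclic loess against -0.12. Leaving out 1 array at a time gave 99 to 741 calls, 78 to 266 with at least 2 log2 units and 65.9% to 93.5% higher. With the replicate block, 471 were called, and the replicate numbers are not treated as paired. Of the 61 called circRNAs that the rule for names selected (1 of them the unnamed probe), 26 kept the call in all 28 alternatives, and none of the 61 reversed. The cause of these shifts was not tested, and the fits differ in the number of arrays.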
